A study of Mus musculus with 6 samples.

Results

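Carbonic anhydrases are enzymes that interconvert carbon dioxide and bicarbonate, and the family described here is 10 mouse genes, Car1, Car2, Car3, Car4, Car5b, Car8, Car9, Car12, Car13 and Car14. They were chosen by symbol in the platform annotation from 19505 genes with a measured probe set, a group of array probes read as 1 value. Each of the 10 had a single probe set. The values came from 6 single-colour arrays of RNA labelled as colon crypt RNA from C57BL/6J mice. Of these, 3 were from control mice, titled PBS, and 3 from mice given MBELN, exosome-like nanoparticles of mulberry bark, by mouth for 7 days. What the control mice were given is known from the title alone, the age and sex of the mice are not given in the labels used here, and no genetic change is named for either group. Whether the arrays come from separate mice is not stated in the labels, so a p-value here speaks of the spread between samples. That spread may be technical, and arrays of the same group also differ in tissue markers, as given below. Every SE and p-value here takes in those differences. With 3 arrays a group, precision is limited throughout.

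In the gut, carbonic anhydrases supply the protons and bicarbonate that epithelial cells exchange for sodium and chloride. The isozymes differ in place. Car1, Car2, Car3 and Car13 are cytosolic, Car5b is mitochondrial, Car4 is held on the outer cell surface by a lipid anchor, and Car9, Car12 and Car14 span the membrane with the enzyme domain outside the cell. Car8 keeps the fold but has lost the activity, and it binds the inositol trisphosphate receptor of the endoplasmic reticulum. Car13, Car1, Car3 and Car2 follow each other as neighbouring protein-coding genes on chromosome 3 in the RefSeq annotation of GRCm38.p6.

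The tissue markers of the arrays bear on every value below. All 15 gut epithelial markers lay above the dim level in each PBS array, against 11, 2 and 10 of 15 in MBELN 1, 2 and 3. The dim level of an array is the 95th percentile of its olfactory and vomeronasal receptor probe sets, between 3.99 and 4.44 on the log2 scale. Heart muscle markers had a median of 18.22 in MBELN 1 and 18.48 in MBELN 3, and neuronal markers had 16.12 in MBELN 2, with every measured marker of these lists above the dim level there. Among the PBS arrays, colon epithelial markers were highest in PBS 2, with a median of 13.62, and Paneth cell markers of the small intestine had medians of 19.45 in PBS 1, 3.75 in PBS 2 and 19.76 in PBS 3. Of 11 measured colon markers, 10 were above the dim level in PBS 2, 6 in PBS 1 and 6 in PBS 3. In MBELN 1, 2 and 3 there were 3, 1 and 2. The colon marker Aqp8 was below the dim level in 5 of the 6 arrays. The median of all transcript probe sets lay between 4.38 and 4.55 in the 6 arrays. These lists were written with earlier results of these arrays known. The heart, neuronal and Paneth cell markers go against the label of colon crypt in MBELN 1, 2 and 3 and in PBS 1 and PBS 3. Group and tissue content are confounded, so a difference between PBS and MBELN below is between arrays that carry these labels, and treatment and tissue cannot be told apart. In bulk RNA fewer cells of a type and less RNA per cell cannot be told apart.

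**Figure D1:**
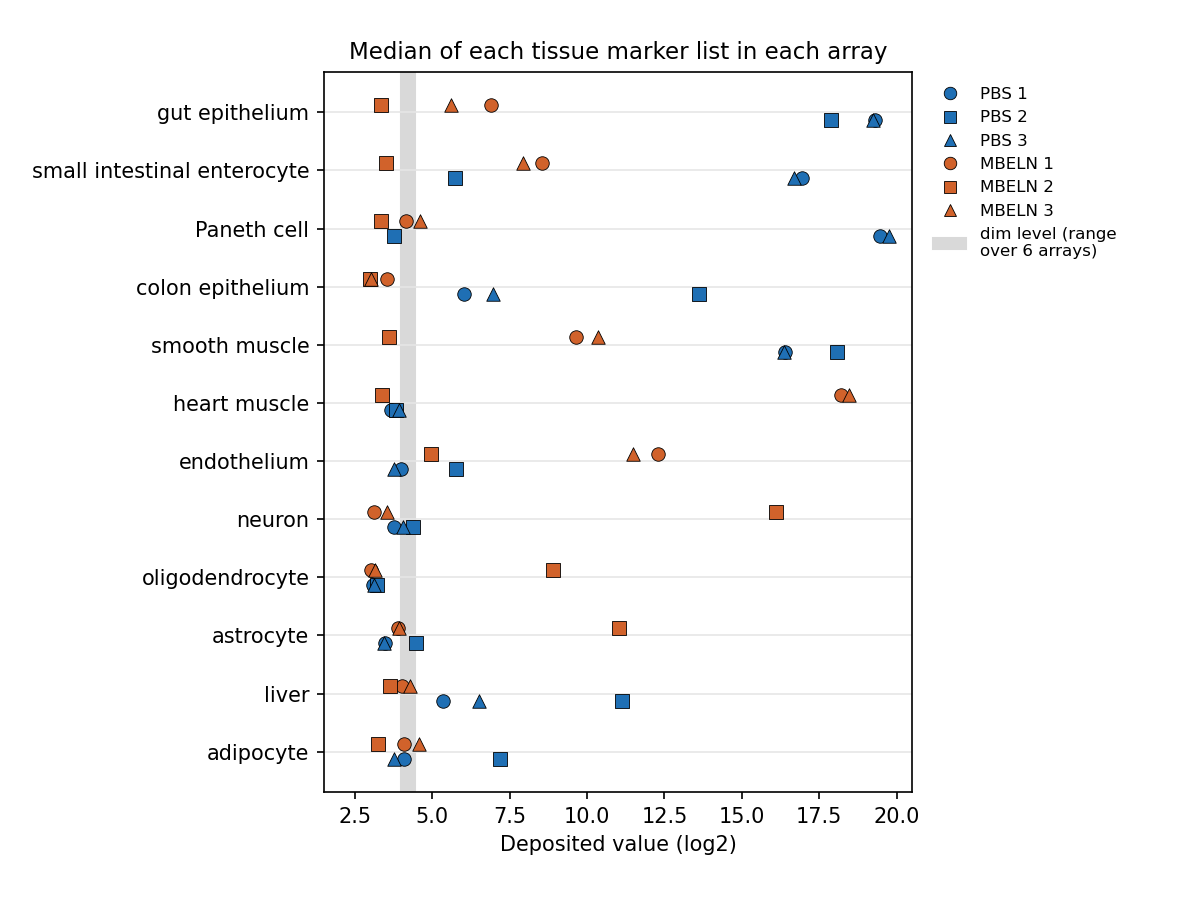
Median log2 value of 12 tissue marker lists (rows) in each array (symbols: shape gives the replicate, colour the group), with the range of the dim level in grey. Heart muscle and endothelial medians are high in MBELN 1 and MBELN 3, neuronal, oligodendrocyte and astrocyte medians in MBELN 2, and colon epithelial, liver and adipocyte medians in PBS 2.

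Compared with PBS, Car4, Car9 and Car13 fell in the arrays labelled MBELN, and no member passed the test as higher. Of the 10 members, 3 were lower, 0 higher and 7 not past an adjusted p of 0.05 (limma with Benjamini-Hochberg adjustment over 22206 probe sets). Over all probe sets, 5.18% passed, 3.76% lower and 1.42% higher. At an unadjusted p under 0.05 there were 4 members, the fourth being Car14, which was higher, against 17.8% of probe sets. At an adjusted p under 0.01 there were 0 members, against 1.83%. The median difference of the 10 members, MBELN minus PBS, was -2.80 on the log2 scale, against 0.09 over all probe sets. In 4 members the 3 MBELN values lay below the 3 PBS values, as they did in 13.4% of all probe sets, and in 0 members above them, against 11.9% (25.3% in either direction).

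**Figure D2:**
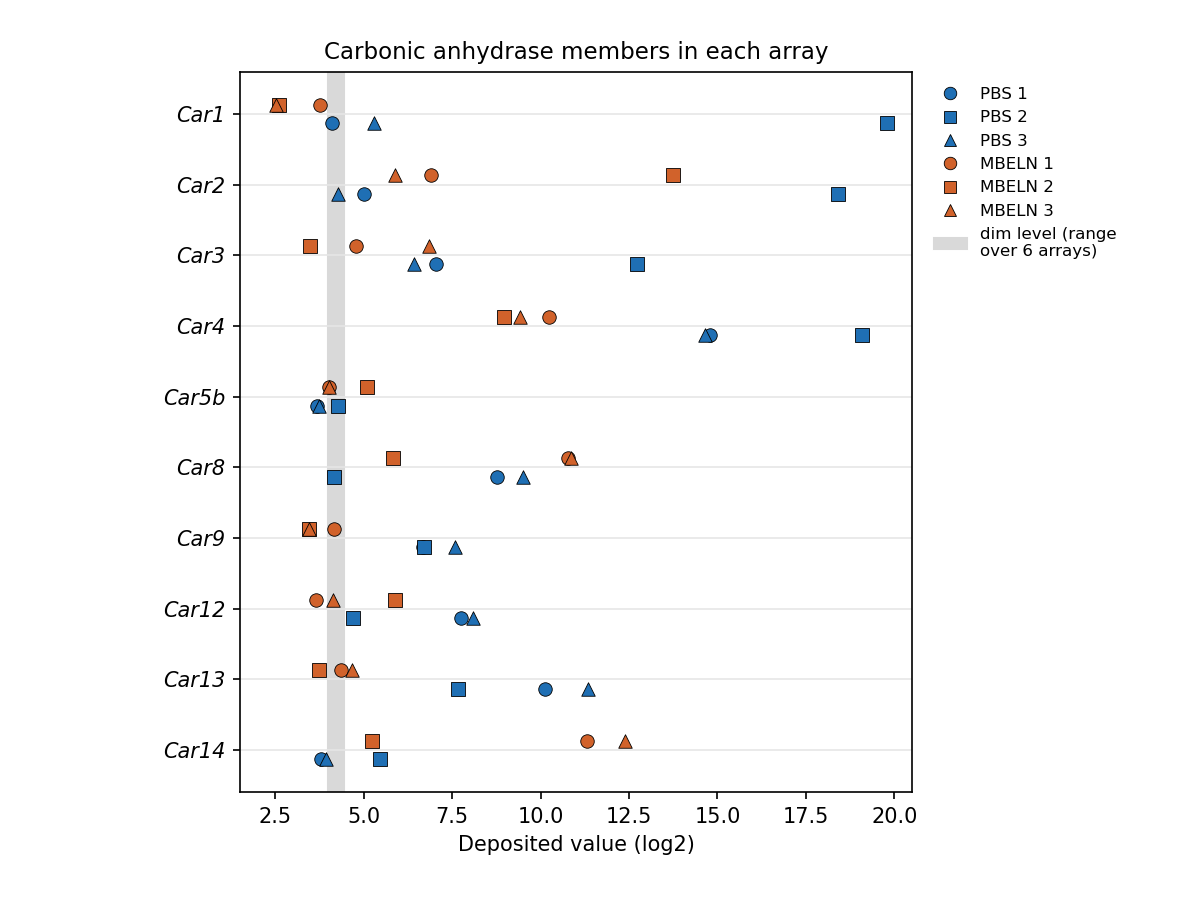
Deposited log2 value of each of the 10 carbonic anhydrase members (rows) in each array (symbols: shape gives the replicate, colour the group), with the range of the dim level over the 6 arrays in grey. Car4, Car9 and Car13 are lower in all 3 MBELN arrays than in any PBS array, Car1 is far above the dim level in PBS 2 alone, and Car14 is high in MBELN 1 and MBELN 3.

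Car4, the lipid-anchored isozyme of colonic surface cells and of capillary walls, read 14.79, 19.08 and 14.66 in PBS 1, 2 and 3 (log2). In MBELN 1, 2 and 3 it read 10.24, 8.96 and 9.41. The groups did not overlap, and the lowest PBS array lay 4.42 above the highest MBELN array. All 6 values were above the dim level, so Car4 was still measured in every MBELN array. The PBS 2 value of 19.08 lies near the top of the scale, where the highest value of any probe set was 19.9. By limma, Car4 fell by 6.64 ± 1.28 on the log2 scale (SE, n = 3, adjusted p = 0.0479). The difference was -5.19 without PBS 2 (adjusted p = 0.00807) and -4.90 ± 0.39 without PBS 2 and MBELN 2, the arrays that stood apart within their groups (adjusted p = 0.000107). The call was lost on leaving out PBS 1 (adjusted p = 0.121), PBS 3 (0.111), MBELN 1 (0.137) or MBELN 3 (0.164), and with quantile normalization (0.0555). Endothelial markers, of cells in which Car4 is also known, had medians of 12.29 and 11.49 in MBELN 1 and MBELN 3, 4.96 in MBELN 2 and 3.75 to 5.75 in PBS.

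Car9, the membrane isozyme known as a target of the hypoxia-inducible factor HIF and found on the basolateral side of gut epithelium, read 6.68, 6.71 and 7.59 in PBS. It read 4.17, 3.44 and 3.44 in MBELN 1, 2 and 3, below the dim level in all 3 arrays. Its spread within each group was narrow, with SDs of 0.52 in PBS and 0.42 in MBELN (n = 3), and the groups were 2.51 apart at their nearest values. Car9 was at least 6.43-fold lower, from the PBS mean of 6.99 to the mean dim level of the MBELN arrays, and the fitted difference was -3.31 ± 0.40 (log2, SE; limma, adjusted p = 0.0113). It was the member with the smallest p. Without PBS 2 and MBELN 2 it was at least 6.6-fold lower. Leaving out PBS 1 (adjusted p = 0.0559), PBS 3 (0.0510) or MBELN 3 (0.0613) lost the call.

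Car13, a cytosolic isozyme, read 10.12, 7.67 and 11.35 in PBS 1, 2 and 3, against 4.35, 3.72 and 4.66 in MBELN 1, 2 and 3. The MBELN values were below the dim level in 2 of the 3 arrays, and PBS 2 was the lowest PBS array, still 3.01 above the highest MBELN value. The difference was -5.47 ± 0.97 on the log2 scale (SE, n = 3, limma, adjusted p = 0.0371), and -6.23 ± 0.46 without PBS 2 and MBELN 2. The fall no longer passed on leaving out PBS 1 (adjusted p = 0.167), PBS 3 (0.104), MBELN 1 (0.131) or MBELN 3 (0.122). It also did not pass with the hybridisation control level, a technical reading described under the processing, as a block (0.0565).

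All 3 calls needed most of the arrays. Leaving out PBS 1, PBS 3 or MBELN 3 gave 0 of the 10 members past the threshold in the limma fit, where 1.7%, 1.71% and 2.01% of all probe sets passed. Without MBELN 1, Car9 alone passed, against 2.26%. Within the arrays of higher hybridisation control level, PBS 2 against MBELN 1 and MBELN 3, the differences of Car4, Car9 and Car13 were -9.25, -2.91 and -3.17. Within the lower level, which sets MBELN 2 against PBS 1 and PBS 3, they were -5.76, -3.70 and -7.01. In each of these fits 1 group is a single array, whose spread is taken from the other group, and 18.8% and 32.6% of all probe sets passed, so the differences are given as values alone. Beside these 3 genes, the gut epithelial median was 17.89 to 19.31 in PBS and 3.35 to 6.90 in MBELN.

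**Figure D3:**
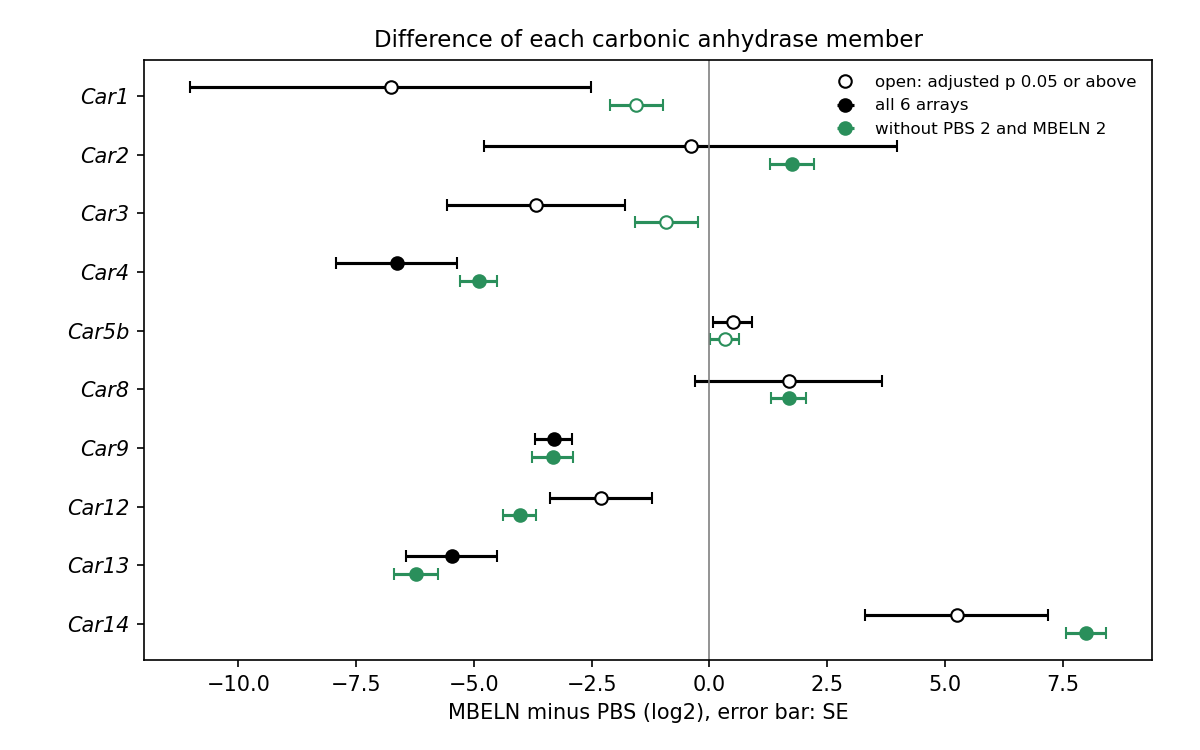
Difference MBELN minus PBS (log2) of each member with its SE, for all 6 arrays (black) and without PBS 2 and MBELN 2 (green). Filled symbols have an adjusted p under 0.05. Of all probe sets, 5.18% passed with all 6 arrays and 30.5% without PBS 2 and MBELN 2. Car4, Car9 and Car13 are filled in both settings, some differences include values below the dim level, and the SEs of Car1, Car2, Car3, Car8 and Car14 shrink when both arrays are left out.

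RefSeq promoters of GRCm38.p6 were listed for 5 of the 10 members, Car4, Car5b, Car9, Car12 and Car14. The 250 bases before the start site are shown, 5′ to 3′, for Car9 and Car4, which fell, and Car14, which differed the other way. Capitals mark CACGT, the reverse complement of ACGTG, the core of the HIF site.
Car9, chr4:43506776-43507025, plus strand: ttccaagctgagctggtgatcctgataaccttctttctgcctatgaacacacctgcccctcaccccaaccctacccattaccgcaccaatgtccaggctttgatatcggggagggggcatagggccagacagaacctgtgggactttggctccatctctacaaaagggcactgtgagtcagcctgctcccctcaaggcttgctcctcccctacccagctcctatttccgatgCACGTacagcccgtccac
Car4, chr11:84957504-84957753, plus strand: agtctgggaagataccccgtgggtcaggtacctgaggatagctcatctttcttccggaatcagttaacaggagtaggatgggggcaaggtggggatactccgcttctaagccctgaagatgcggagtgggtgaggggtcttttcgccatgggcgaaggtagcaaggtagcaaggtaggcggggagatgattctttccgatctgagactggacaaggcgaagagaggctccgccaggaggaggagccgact
Car14, chr3:95904686-95904935, minus strand: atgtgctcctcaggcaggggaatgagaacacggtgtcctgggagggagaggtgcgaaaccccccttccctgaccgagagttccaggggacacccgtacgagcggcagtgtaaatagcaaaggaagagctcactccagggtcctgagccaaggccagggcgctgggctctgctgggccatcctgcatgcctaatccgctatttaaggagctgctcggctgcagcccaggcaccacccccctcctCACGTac
In Car9 the match runs from base -18 to base -14 before the start site, and in Car14 from -7 to -3. In Car4 it lies at bases 3 to 7 after the start, outside the bases shown. Of 32851 RefSeq promoter windows of 300 bases (250 before and 50 after the start), 19.6% held ACGTG on either strand. This short core is part of CACGTG, the E-box read by other factors, and a match is a description of the letters alone. The GC box GGGCGG, held by 35.7% of windows, was found once in Car12 and at 2 places in Car5b. TATAAA, in 13.6% of windows, was found in Car4 alone of the 5, at bases 43 to 48 after the start. The Cdx core TTTAT, in 40.0% of windows, was also found in Car4 alone, at bases 44 to 48. Every TATAAA holds its reverse complement ATAAA, so the 2 matches are the same letters. CAAAGTCCA, an Hnf4 site in 0.475% of windows, was in none of the 5.

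Because Car9 is a known HIF target, 14 measured hypoxia-induced genes were read beside it, and 0 passed the threshold with limma, where 5.18% of all probe sets did. At an unadjusted p under 0.05 there were 5, against 17.8% of all probe sets, and the median difference was 0.26. The 3 with the smallest p were Bnip3, a mitophagy receptor, Egln1, the oxygen-sensing hydroxylase, and Ankrd37. Bnip3 read 7.76, 10.91 and 7.59 in PBS and 15.19, 10.95 and 13.50 in MBELN, with no overlap and an adjusted p of 0.171 (limma). Egln1 read 9.61, 11.41 and 9.97 in PBS and 15.91, 11.34 and 15.69 in MBELN, and Ankrd37 read 6.79, 8.86 and 5.76 against 4.63, 4.49 and 5.11. The higher values of Bnip3 and Egln1 were in MBELN 1 and MBELN 3. Without MBELN 2, both were past the threshold (limma, adjusted p = 0.0288 and 0.00318), where 16.8% of all probe sets passed.

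Car1, the isozyme of red cells and of colonic epithelium, was the member with the widest range. It read 4.09, 19.79 and 5.29 in PBS 1, 2 and 3, against 3.76, 2.59 and 2.52 in MBELN 1, 2 and 3. PBS 2 stood far above the other 5 arrays, and the value in PBS 1 and all 3 MBELN values were below the dim level. The difference of -6.77 ± 4.26 (log2, SE, n = 3) did not pass (limma, adjusted p = 0.489), and it was -1.73 without PBS 2. From the PBS mean to the mean dim level of the MBELN arrays the distance was 42.6-fold, which rests on PBS 2. The mean also takes in the dim value of PBS 1, so this is not a lower limit. Without PBS 2 and MBELN 2 the distance was 1.21-fold. The groups did not overlap, but the gap between PBS 1 and MBELN 1 was 0.33, with both arrays below the dim level for this gene. Beside it, Aqp8, the water channel of the colonic surface, read 16.13 in PBS 2 and 2.71 and 2.62 in PBS 1 and PBS 3. The colon list as a whole had medians of 6.03, 13.62 and 6.95 in PBS 1, 2 and 3. Not every gene of the list had this order, and Mettl7b read 7.86, 6.20 and 8.96. Red cell markers could hardly be read, with 3 of 9 listed genes measured and medians of 3.31 to 4.51 over the 6 arrays.

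Car2, the fast cytosolic isozyme of many epithelia, oligodendrocytes and astrocytes, was high in 1 array of each group. It read 5.01, 18.42 and 4.27 in PBS 1, 2 and 3, against 6.89, 13.73 and 5.88 in MBELN 1, 2 and 3. All 6 values were above the dim level, and the groups overlapped over their whole range. The difference was -0.40 ± 4.39 (log2, SE; limma, adjusted p = 0.978), and its sign turned to 4.19 without PBS 2, to 0.57 without MBELN 1 and to 1.08 without MBELN 3. It was 1.75 ± 0.46 without PBS 2 and MBELN 2 (limma, adjusted p = 0.0274), where 30.5% of all probe sets passed. In MBELN 2, 9 of 9 oligodendrocyte markers and 7 of 7 astrocyte markers were above the dim level, with medians of 8.89 and 11.03, and in PBS 2 there were 1 of 9 and 5 of 7, with medians of 3.21 and 4.48. Colon epithelial markers had 10 of 11 above it in PBS 2 and 1 of 11 in MBELN 2.

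Car3, the cytosolic isozyme of muscle, fat and liver, has low activity and also read highest in PBS 2. Its values were 7.05, 12.72 and 6.42 in PBS and 4.78, 3.48 and 6.84 in MBELN, and the groups overlapped. The MBELN 2 value was below the dim level. The difference of -3.69 ± 1.89 did not pass (limma, adjusted p = 0.388), and it was -1.70 without PBS 2. PBS 2 also had the highest values of Alb, liver albumin, with 17.59 against 5.33 and 7.37 in the other PBS arrays, and of the fat hormone gene Adipoq, with 9.52 against 4.91 and 3.74. Of 7 liver markers, 7 were above the dim level in PBS 2, 4 in PBS 1 and 6 in PBS 3. Cps1 of the liver list ran the other way, with 11.57, 5.76 and 12.52 in PBS 1, 2 and 3. Of 8 adipocyte markers, 5 were above the dim level in PBS 2, 4 in PBS 1 and 3 in PBS 3. In PBS 2, Plin1, Cidea and Ucp1 were below it. Skeletal muscle markers had a median of 3.08 in PBS 2, with 1 of 15 above the dim level. Smooth muscle markers had medians of 16.41, 18.09 and 16.35 in PBS 1, 2 and 3. In MBELN 1, 2 and 3 these medians were 9.63, 3.61 and 10.35. Which cells the Car3 values come from was not tested. In MBELN 1 and MBELN 3, where heart markers were high, Car3 read 4.78 and 6.84.

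Of the 4 cytosolic genes that lie side by side, then, Car1, Car2 and Car3 read highest in PBS 2 and Car13 read highest in PBS 3 and lowest among the PBS arrays in PBS 2. This is an order of arrays within a gene and rests on 1 PBS array against 2, with no test. Car4, on chromosome 11, was also highest in PBS 2.

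Car12, a membrane isozyme of the basolateral side of epithelia, read 7.74, 4.70 and 8.10 in PBS 1, 2 and 3, against 3.66, 5.87 and 4.12 in MBELN 1, 2 and 3. PBS 2 lay below MBELN 2, so the groups overlapped, and the difference of -2.30 ± 1.09 (log2, SE, n = 3) did not pass (limma, adjusted p = 0.354). Without PBS 2 and MBELN 2, it was at least 11.3-fold lower (adjusted p = 0.000167), in a setting where 30.5% of all probe sets passed. MBELN 2 was the single MBELN array with Car12 above the dim level. Small intestinal enterocyte markers had medians of 16.96, 5.72 and 16.70 in PBS 1, 2 and 3, and of 8.56, 3.50 and 7.93 in MBELN 1, 2 and 3. PBS 2 was thus the lowest PBS array for both, whereas MBELN 2 was the lowest MBELN array for the markers and the highest for Car12.

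Car14, a membrane isozyme known in heart muscle, kidney and brain, had the largest positive difference of the 10 members. In MBELN 1, 2 and 3 it read 11.32, 5.23 and 12.39, against 3.80, 5.45 and 3.92 in PBS 1, 2 and 3. Because MBELN 2 lay below PBS 2, the groups overlapped. The difference of 5.25 ± 1.94 (log2, SE, n = 3) did not pass (limma, adjusted p = 0.242). Without MBELN 2 it was 7.46 ± 0.64 (adjusted p = 0.00152), where 16.8% of all probe sets passed. Car14 was below the dim level in PBS 1 and PBS 3, and without PBS 2 and MBELN 2 it was at least 217-fold higher (adjusted p = 2.13e-05). Car14 was high in the same 2 arrays as Myh6, the cardiac myosin heavy chain, with 18.82 and 19.03 in MBELN 1 and MBELN 3, against 3.68 in MBELN 2.

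Car8, the inactive partner of the inositol trisphosphate receptor, best known from cerebellar Purkinje cells, was high in replicates 1 and 3 of both groups. It read 8.78, 4.17 and 9.49 in PBS 1, 2 and 3, against 10.76, 5.84 and 10.86 in MBELN 1, 2 and 3. In each group, replicate 2 was the low array, and its difference from the mean of the other pair was -4.97 in both PBS and MBELN. The PBS 2 value of 4.17 was below the dim level of that array, 4.33. The difference between the groups was 1.68 ± 1.99 (limma, adjusted p = 0.707). Without PBS 2 and MBELN 2 it was 1.68 ± 0.37 (adjusted p = 0.0124), where 30.5% of all probe sets passed. Within the arrays of lower hybridisation control level, where MBELN 2 is the single MBELN array, its sign turned to -3.29. Purkinje cell markers had a median of 8.90 in MBELN 2, with 5 of 7 above the dim level, and 2.90 to 3.18 in the other 5 arrays. Pcp2 and Ppp1r17 were below the dim level in MBELN 2 as well, at 2.64 and 2.59, so the list does not settle whether Purkinje cells were there. In MBELN 1 and MBELN 3, 0 and 1 of the 7 were above it.

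Car5b, the mitochondrial isozyme that supplies bicarbonate to biosynthesis, read 3.68, 4.26 and 3.72 in PBS and 4.02, 5.09 and 4.02 in MBELN. MBELN 2 was the single array above its dim level. The difference was 0.49 ± 0.41 (log2, SE, n = 3; limma, adjusted p = 0.594), and its sign turned to -0.23 within the arrays of higher hybridisation control level. From the mean dim level of the PBS arrays to the MBELN mean the distance was 1.16-fold. MBELN 1 and MBELN 3 were themselves below the dim level, so this is not a lower limit. With 5 of 6 values below the dim level, a change in Car5b could hardly have been read on these arrays.

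Counted over arrays, 2 members (Car2 and Car4) lay above the dim level in all 6, 8 in at least 3, and all 10 in at least 1. PBS 2 was the highest array for 4 members, PBS 3 for 3, MBELN 3 for 2 and MBELN 2 for 1. The choice of arrays set how many members passed the test. It was 7 of 10 without PBS 2 and MBELN 2, with Car4, Car9, Car12 and Car13 lower and Car2, Car8 and Car14 higher, against 30.5% of all probe sets. With array weights, which lower the weight of arrays that stand apart, it was 5 of 10, namely Car4, Car9, Car12, Car13 and Car14, against 25.9%.

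The other carbonic anhydrase genes were Car5a, Car6, Car7, Car10, Car11 and Car15. With limma, 0 of 6 were past the threshold, against 5.18% of all probe sets, and the median difference was 1.61. An unadjusted p under 0.05 was found for 1 of them, Car7, against 17.8% of all probe sets. Car11 and Car10 encode inactive relatives of brain. Car11 was highest in MBELN 2, at 14.92, with 5.13 in MBELN 1, 6.86 in MBELN 3 and 4.14 to 4.84 in PBS. Car10 read 11.43 in MBELN 2 and 2.49 to 2.96 in the other 5 arrays, all below the dim level. Car7, a cytosolic isozyme known in neurons, read 5.86, 8.60 and 5.87 in the MBELN arrays, against 3.52 to 3.95 in PBS, below the dim level in all 3 PBS arrays. From the mean dim level of the PBS arrays to the MBELN mean of Car7 the distance was at least 6.09-fold, and the fitted difference was 3.08 ± 0.81 (log2, SE; limma, adjusted p = 0.114). Of the 6, Car5a and Car6 were below the dim level in every array, and Car15 was above it in PBS 3, with 4.55, and in MBELN 2, with 4.17. The highest array of Car7, Car10 and Car11 was thus the one in which 11 of 11 neuronal markers were above the dim level.

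**Figure D4:**
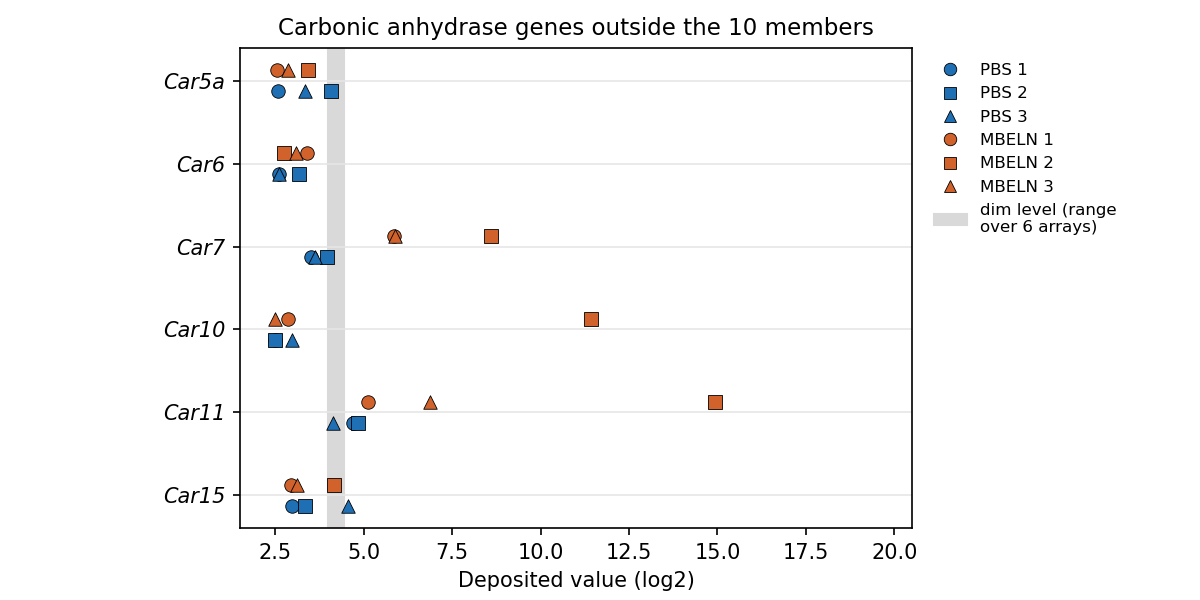
Deposited log2 value of the 6 carbonic anhydrase genes outside the 10 members (rows) in each array (symbols: shape gives the replicate, colour the group), with the dim level in grey. Car10 is above the grey band in MBELN 2 alone, where it reads 11.43, and Car11 reads 14.92 there.

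Carbonic anhydrases work beside transporters of bicarbonate and protons. Of 16 measured bicarbonate and chloride/bicarbonate transport genes, 2 fell, 1 rose and 13 did not pass, with a median difference of -0.40. Of all probe sets, 3.76% were lower and 1.42% higher. Slc26a2, a sulfate and anion exchanger of colonic epithelium, read 12.49, 15.06 and 12.72 in PBS and 5.28, 4.56 and 5.86 in MBELN, and fell by 8.19 ± 0.79 (limma, adjusted p = 0.00570). Cftr, the chloride and bicarbonate channel, read 11.49, 8.21 and 11.01 against 3.59, 5.61 and 5.06, and fell by 5.49 ± 1.03 (adjusted p = 0.0436). Its lowest PBS value was in PBS 2, as for Car13. Slc4a3, an anion exchanger of heart and brain, read 2.82, 3.39 and 3.05 in PBS and 6.96, 7.35 and 5.99 in MBELN. It was at least 6.05-fold higher, since its PBS values lay below the dim level (adjusted p = 0.0108). Cftr no longer passed on leaving out PBS 1 (adjusted p = 0.168), PBS 3 (0.182), MBELN 1 (0.144) or MBELN 3 (0.143), nor did Slc4a3 without PBS 1 (0.0675), PBS 3 (0.0661) or MBELN 1 (0.0580).

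Of 16 measured genes of proton and acid extrusion, 2 fell, 0 rose and 14 did not pass with limma. Of all probe sets, 3.76% were lower and 1.42% higher. At an unadjusted p under 0.05 there were 3 of the 16, against 17.8% of all probe sets, and the median difference was -0.56. Slc9a2, a sodium/proton exchanger of the apical membrane, read 12.70, 12.82 and 12.08 in PBS and 3.63, 3.53 and 3.27 in MBELN, at least 299.8-fold lower (adjusted p = 0.000493). Slc9a3r1, the scaffold of the brush border exchanger, fell by 8.99 ± 1.10 (limma, adjusted p = 0.0120). This fall did not pass on leaving out PBS 1 (0.0620), PBS 3 (0.0648), MBELN 1 (0.0626) or MBELN 3 (0.0633). Slc16a3, a lactate and proton carrier, read 6.12, 7.47 and 6.14 against 4.57, 3.98 and 4.05 (adjusted p = 0.0515). The groups did not overlap in any of these 3 genes, which were named for the smallest p. In the whole list they did not overlap in 4 of 16, against 25.3% of all probe sets.

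**Figure D5:**
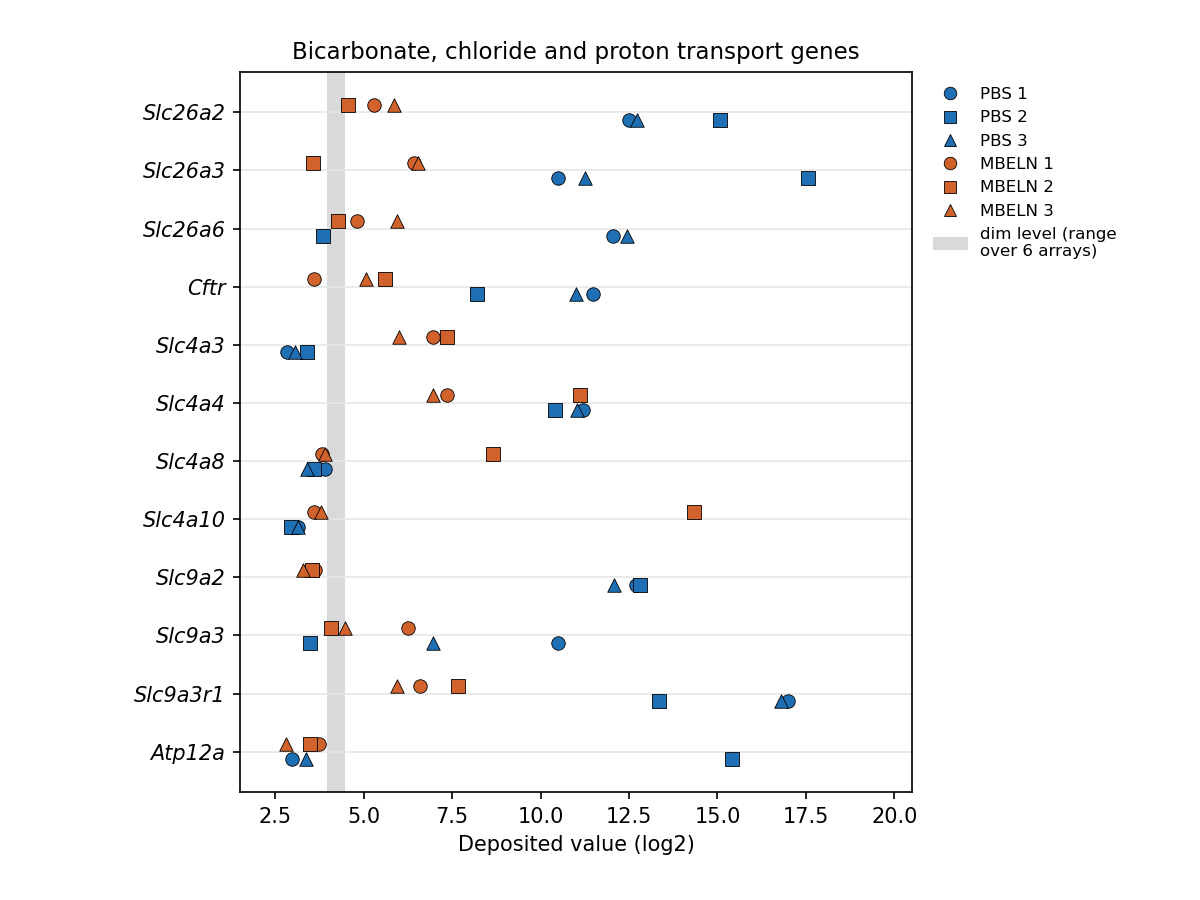
Deposited log2 value of 12 genes of bicarbonate, chloride and proton transport (rows), picked after their values were seen, in each array (symbols: shape gives the replicate, colour the group), with the dim level in grey. Slc26a2, Cftr, Slc9a2 and Slc9a3r1 are lower in all 3 MBELN arrays, Slc26a3 and Atp12a are highest in PBS 2, and Slc4a10 is high in MBELN 2 alone.

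For each member whose values ranged over more than 4 log2 units, the pair of genes with the most similar array pattern was found by the root-mean-square difference of mean-centred values over the 6 arrays. For Car9 these were Rassf6 and Traf4, at 0.18 and 0.22 log2 units. For Car12 they were Aacs, which activates acetoacetate for lipid synthesis, and Lss, the lanosterol synthase, at 0.19 and 0.25. Aacs read 6.96, 4.11 and 7.92 in PBS and 2.97, 5.45 and 3.58 in MBELN, with the same low PBS 2 and high MBELN 2 values as Car12. Car13 was nearest to Myh14, a nonmuscle myosin heavy chain, and Capn1, a calpain protease, at 0.33 and 0.37. Car14 was nearest to Ccng1, a cyclin, and Sgca, the alpha-sarcoglycan of muscle membranes, at 0.39 and 0.44. Car4 was nearest to Serpinb5 and Rhpn2, at 0.50 and 0.58, and Car8 to Rgs5, a G protein regulator of pericytes, and Hspd1, a mitochondrial chaperonin, at 0.63 and 0.70. Car3 was nearest to B3gnt5 and Slc40a1, the iron exporter, at 0.67 and 0.73. Car1 was nearest to Anxa8 and Tgm3, at 1.15 and 1.20, both high in PBS 2, with 18.80 and 19.12. No gene followed Car2 closely, the nearest being Slc2a1, the glucose transporter of the blood-brain barrier, at 2.30, and B3galt5 at 2.36. Slc2a1 read 15.90 in PBS 2 and 13.60 in MBELN 2, the high arrays of Car2. With 6 arrays that differ in tissue markers, many genes share such patterns, and these distances are a description with no test.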

How the data were processed

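The authors deposited values, taken here as log2, that they had summarised to 1 per probe set and array before deposit. The log2 scale is an inference from values between 0 and 19.9. Per the labels' protocols, 90 ng of Trizol-extracted RNA was labelled with biotin, and the same label names a sequencing assay, which is not resolved here. The submitters' processing notes name Transcriptome Analysis Console 4.0. For summarization, background correction, normalization and genome build, the method is not given in the sources used here. Of 28846 probe sets, 6640 array controls were left out. Of the remaining 22206, 19572 had 1 gene symbol, 0 several and 2634 none. Of several probe sets for a gene, the one with the highest mean was used. Entrez identifiers of all 10 members were in the RefSeq table of GRCm38.p6, with the same symbols.

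MBELN was compared with PBS, without covariates, with lmFit and eBayes of limma 3.58.1 (R 4.3.3, statmod 1.5.0), two-sided, with Benjamini-Hochberg adjustment over 22206 probe sets, called at 0.05. Residual degrees of freedom were 4 and prior degrees 1.66. A gene below the dim level (95th percentile of 1414 receptor probe sets) in all arrays of 1 group has a bound, at least N-fold, beside any fitted difference. For Car1 and Car5b the other group also held dim values, and a distance is given that is not a lower limit. Arrays fell into a higher (PBS 2, MBELN 1, MBELN 3) and a lower level of hybridisation controls. This technical split follows the tissue markers inside each group alone. Within a level, the PBS and MBELN arrays still differ in tissue markers. Named genes were the 10 members, the other carbonic anhydrase genes, up to 3 genes with the smallest p of each pathway list, and the 2 genes most alike in pattern. Other genes were named after their values were seen. The members and lists were chosen with earlier results of these data known. The fit was tested on simulated data, in 3 rounds of MBELN against PBS over 22206 probe sets, and recovered 0% of probe sets changed by 1 log2 unit, 9.3% of those changed by 2, 52.0% by 4 and 77.3% by 8. Alternatives were other normalizations, array weights, a replicate block, leaving out dim probe sets, a trended robust variance, other thresholds, the mean of probe sets, arrays left out, and the hybridisation control level. Plots were drawn with matplotlib 3.10.9.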

Additional observations from a re-analysis of the deposited data

How the results depend on the processing

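Car4, Car9 and Car13 stayed lower in MBELN in every setting run, and what changed was the call. Over all probe sets 1150 passed (315 higher, 835 lower). The counts were 5757 (2870 and 2887) with array weights, 456 (63 and 393) with the replicate block, 407 (68 and 339) at a threshold of 0.01, 1772 (556 higher) at 0.10, 6769 (3354 and 3415) without PBS 2 and MBELN 2, and 4174 (2129 and 2045) and 7234 (3731 and 3503) within the higher and lower hybridisation control level. With a trended robust variance 193 were higher. Leaving out 1 array gave 377 to 3738 in all, 51 to 2112 higher and 325 to 1626 lower.

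Of the 10 members, the count past the threshold was 5 with array weights (1 higher), 0 with the replicate block (2.05% of probe sets) and at 0.01, 7 without PBS 2 and MBELN 2 (3 higher), 8 within the higher level (2 higher, 6 lower) and 9 within the lower (3 and 6). It was 0 to 4 with 1 array left out, 0 to 1 higher and 0 to 3 lower, against 1.7% to 16.8% of all probe sets. From the pathway lists, 5 genes passed, and 15, 1, 2, 18, 19 and 24 in the same settings, 10 with the level as a block, and 2 to 11 with 1 array left out. The sign of Car2 turned to 0.71 with array weights, 1.75 without PBS 2 and MBELN 2 and 9.09 within the lower level, with -2.88 to 4.19 when 1 array was left out. That of Car10 turned to -0.04 without PBS 2 and MBELN 2, that of Car5b to -0.23 within the higher and that of Car8 to -3.29 within the lower level. The cause of these changes was not tested. In each fit within a hybridisation control level, 1 group is a single array, whose spread is taken from the other group. The counts of probe sets from these fits rest on that array and are not read as group results.

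The deviations of same-numbered arrays from their group means correlated at -0.03, -0.07 and -0.06. Arrays of a group differ in tissue markers, so these values cannot tell whether the numbers in the titles pair the samples. With the replicate block, the adjusted p of Car4, Car9 and Car13 was 0.139, 0.0770 and 0.0626 (limma). The dim level limits Car1, Car3, Car5b, Car8, Car9, Car12, Car13 and Car14, and values near 19.9 limit Car1 and Car4 in PBS 2.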

Other observations

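Some ion transport genes stood apart in single arrays, and those named here were chosen after their values were seen. Atp12a, the colonic proton and potassium pump, read 15.42 in PBS 2 and 2.79 to 3.73 in the other 5 arrays, below the dim level in each of them, and Car1 was highest in the same array. Slc26a3, the chloride and bicarbonate exchanger of the colonic surface, read 17.55 in PBS 2 and 10.48 and 11.26 in PBS 1 and PBS 3, against 3.55 to 6.53 in MBELN. The related exchanger Slc26a6 had the opposite order in PBS, with 12.05, 3.86 and 12.45. The sodium/proton exchanger Slc9a3 read 10.50, 3.49 and 6.97.

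Slc4a10, a sodium bicarbonate transporter of neurons and choroid plexus, read 14.33 in MBELN 2 and 2.94 to 3.78 in the other 5 arrays, and Slc4a8, a relative in neurons, read 8.65 there and 3.39 to 3.91 elsewhere. Of 7 measured choroid plexus and ependymal markers, 3 were above the dim level in MBELN 2, with a list median of 3.24. Slc4a4, a sodium bicarbonate cotransporter, read 11.12 in MBELN 2, within 1 log2 unit of the PBS arrays at 11.20, 10.40 and 11.02, and 7.36 and 6.97 in MBELN 1 and MBELN 3.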
